A study of Homo sapiens with 8 samples.

Results

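The miRNAs described here are 5 mature products of hairpins best known from red blood cells: hsa-miR-451a, hsa-miR-144-3p, hsa-miR-144-5p, hsa-miR-486-5p and hsa-miR-486-3p. They were taken by name from a table of 2588 mature miRNA names, and the 7 table entries of these 5 names were summed by name. They were measured by small RNA-seq in 4 human tumor-derived lines, each with 2 replicate libraries made from 50 ng of total RNA: ES-2 (ovarian cancer), MV-3 (melanoma), Huh-7 (hepatocellular carcinoma) and A-549 (lung adenocarcinoma). All cells were parental and untreated, were harvested 48 h after seeding, and shared one medium, DMEM with 10% fetal bovine serum. The identity of one line can be checked by a marker used here, the hepatocyte miRNA miR-122-5p, which had 288469 and 252449 reads in the Huh-7 libraries and at most 57 in any other library. The libraries held 1173902 to 2670030 miRNA reads each, and their TMM factors, which correct for composition, ran from 0.593 to 1.70.

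In maturing red cells, miR-144 and miR-451a are cut from a shared primary transcript that is switched on by the erythroid transcription factor GATA1. miR-451a is unusual in that its short hairpin skips Dicer and is trimmed after cleavage by Argonaute-2, whereas miR-144 and miR-486 follow the usual Dicer route, which can leave a 5p and a 3p arm. The miR-486 hairpins lie within ANK1, the gene of ankyrin-1, which anchors the membrane skeleton of red cells, and miR-486 is also known from skeletal and heart muscle. Because red cells carry so much miR-451a, its level is commonly used to detect lysed red cells in serum or plasma. In cultured cells, RNA from bovine serum is a further possible source, and many mature miRNAs are identical in cattle and human. No library of medium or serum alone was analysed here, so RNA of the cells and RNA carried in with serum cannot be told apart.

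The cluster that miR-144 and miR-451a share lies on the minus strand of chromosome 17 (GRCh38), where GENCODE places MIR451A at 28861369 to 28861440, MIR144 at 28861533 to 28861618 and MIR4732 at 28861655 to 28861730. All 3 hairpins overlap an exon of the gene model ENSG00000264066. Of the 5 members, the RefSeq set used here held mature sequences for the 2 arms of miR-144 only. Both are shown with the seed (bases 2 to 8) in capitals, and both arms are also the members with no read at all. The sequence of miR-101-3p is set beside them because it shares bases 2 to 7 with miR-144-3p.
hsa-miR-144-3p: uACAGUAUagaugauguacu
hsa-miR-144-5p: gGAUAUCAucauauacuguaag
hsa-miR-101-3p: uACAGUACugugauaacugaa

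The cluster was at or near the limit of detection in every line. For hsa-miR-144-3p and hsa-miR-144-5p, 0 of 15303892 reads were counted over the 8 libraries, which allows a level of up to 0.196 CPM (counts-per-million scale over the miRNA reads, limit set by 3 reads). With both libraries of a line pooled, the limit ran from 0.634 CPM for A-549 to 1.10 CPM for MV-3. Absence of reads was common in the table, in which 1261 of 2588 names (48.7%) had none. miR-101-3p, which shares most of the miR-144-3p seed, had reads in every library, between 653 and 1869 CPM.

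For hsa-miR-451a, 7 reads were found in all. Huh-7 replicate 2 had 4 of them, A-549 replicate 2 had 2 and ES-2 replicate 1 had 1, and the other replicates of these lines and both MV-3 libraries had 0. No line thus had a read in both of its libraries, and a single library, Huh-7 replicate 2, held more than 3 reads. The level there was 2.33 CPM, with an exact (Clopper-Pearson) 95% interval of 0.634 to 5.96 that covers counting error only, as do all intervals given here. It was 0.971 CPM (0.118 to 3.51) in A-549 replicate 2 and 0.601 CPM (0.0152 to 3.35) in ES-2 replicate 1. The 5 libraries without a read allow up to 1.12 to 2.56 CPM by the 3-read limit. Their exact intervals reached up to 1.38 CPM in A-549 replicate 1 and up to 3.14 CPM in MV-3 replicate 1. The intervals of the libraries with reads overlapped all of these, so no difference between lines or replicates was detectable at this depth. An exact permutation test of the F ratio over all partitions of the libraries into 4 pairs gave p = 1 for miR-451a. That value was fixed once no line had a read in both of its libraries, so it adds nothing to the counts.

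The other products of this locus were also without reads. miR-4732-5p and miR-4732-3p, from the hairpin 36 bases from MIR144, and miR-451b, from the strand opposite miR-451a, had 0 reads in each of the 8 libraries. The 3 cluster members and these 3 neighbours together therefore held 7 reads.

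A ratio commonly used to detect lysed red cells in serum sets miR-451a against miR-23a-3p, which red cells hardly contain. On the log2 scale of reads, this ratio was -10.43 in Huh-7 replicate 2, -13.27 in A-549 replicate 2 and -14.09 in ES-2 replicate 1. In the 5 libraries without miR-451a it was at most -13.88 to -11.37, with 3 reads put in place of 0. The comparison depends on miR-23a-3p itself, which was lowest in Huh-7, at 3655 and 3205 CPM, and highest in MV-3, at 31785 and 29182 CPM.

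In contrast to the cluster, hsa-miR-486-5p had reads in all 8 libraries, 6441 in total. ES-2 replicates 1 and 2 had 9 and 31 reads, MV-3 had 154 and 211, A-549 had 581 and 383, and Huh-7 had 2766 and 2306. Scaled to each library's total of miRNA reads and termed library CPM here, ES-2 stood at 5.41 and 13.5, MV-3 at 131 and 136, A-549 at 218 and 186, and Huh-7 at 1273 and 1342. The order of the lines was ES-2, MV-3, A-549 and Huh-7 from low to high. Among the names with a read in a library, miR-486-5p ranked 67 and 64 in Huh-7, 102 and 113 in A-549, 138 and 144 in MV-3, and 326 and 266 in ES-2.

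The 3p arm, hsa-miR-486-3p, was less abundant and had 551 reads in 6 libraries. It had 0 reads in both ES-2 libraries, which allows up to 1.80 and 1.31 library CPM. MV-3 reached 17.9 and 29.7 library CPM, Huh-7 reached 109 and 86.1, and A-549 reached 25.1 and 16.0. Huh-7 was again the highest line, whereas the MV-3 and A-549 libraries overlapped. As for other miRNAs in bulk RNA, a few cells with much of a miRNA and many cells with little of it cannot be told apart in these libraries.

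**Figure D1:**
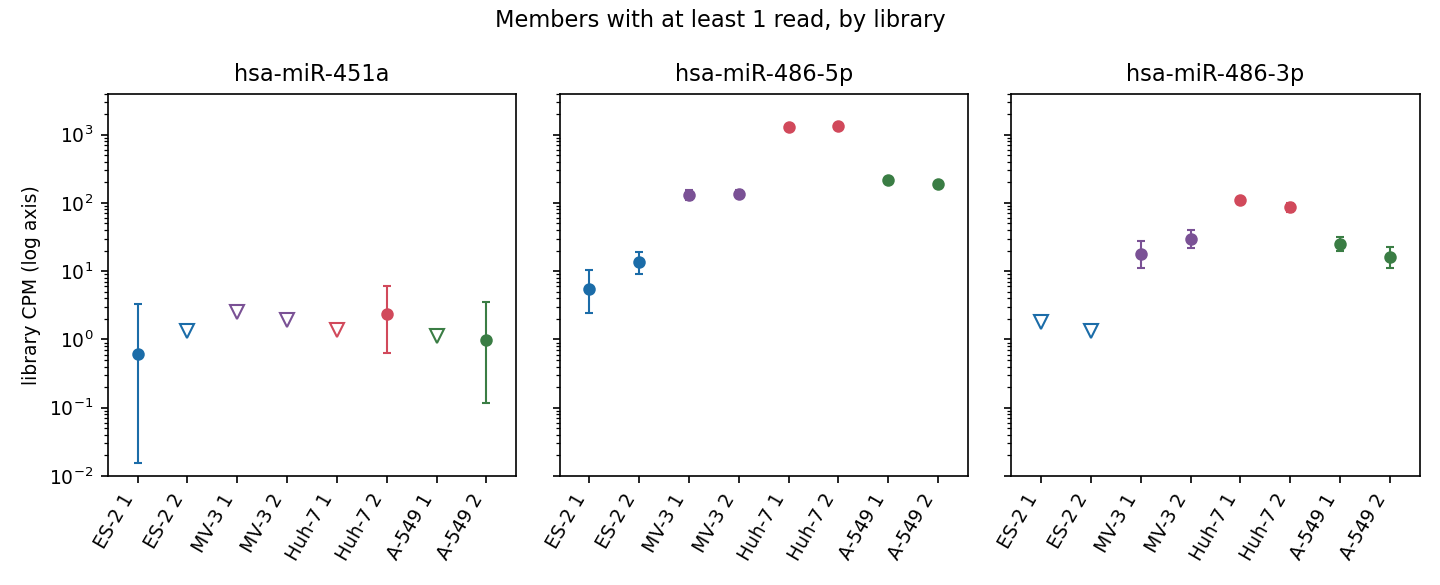
Library CPM on a log axis for the 3 members with a read, 1 point per library and 1 colour per line. Bars are exact 95% intervals of counting error and open triangles mark the 3-read limit of libraries without a read. The highest observed value of miR-451a is 2.33 CPM, while miR-486-5p runs from 5.41 CPM in ES-2 to 1342 in Huh-7.

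To compare the lines, the deposited values were tested with limma. These values, termed normalised CPM, carry a factor per library (the trimmed mean of M values, TMM) that offsets differences in composition. Of the 5 members, hsa-miR-486-5p and hsa-miR-486-3p passed the filter on low values, whereas miR-451a and both miR-144 arms did not and were not tested in the fit. Both tested members differed among the 4 lines, miR-486-5p with limma's adjusted p = 4.33e-05 and miR-486-3p with adjusted p = 7.94e-05. Such calls were frequent, since 68.2% of the 528 names tested were called at the same threshold of 0.01. The exact permutation test gave p = 0.00952, the smallest value these partitions allow, for miR-486-5p on library CPM and on normalised CPM. For miR-486-3p the exact permutation p was 0.0190 on library CPM and 0.00952 on normalised CPM.

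All 3 other lines exceeded ES-2 in both arms. Huh-7 had a mean of 783 ± 6.18 normalised CPM of miR-486-5p (SD, n = 2), A-549 of 335 ± 31.4, MV-3 of 115 ± 1.27 and ES-2 of 11.1 ± 6.84. The log2 fold change over ES-2 was 6.15 in Huh-7 (SE 0.37, limma's adjusted p = 1.5e-05), 4.92 in A-549 (adjusted p = 5.75e-05) and 3.39 in MV-3 (adjusted p = 0.000570). As ratios of mean normalised CPM, these were 70.7-fold, 30.3-fold and 10.4-fold, and on library CPM they were 138-fold, 21.3-fold and 14.1-fold. In these contrasts, 27.7% of tested names were called higher in Huh-7, 23.7% in A-549 and 11.6% in MV-3. For miR-486-3p, which was not detected in ES-2, Huh-7 was at least 32.3-fold higher, A-549 at least 18.8-fold and MV-3 at least 11.3-fold, computed on normalised CPM against the mean of the 3-read limits of the ES-2 libraries. On library CPM these bounds were 62.6-fold, 13.2-fold and 15.3-fold. All 3 differences were called, with limma's adjusted p = 3.38e-05, 8.19e-05 and 0.000312, respectively.

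The ES-2 level of miR-486-5p rested on few reads, and its replicates differed by a ratio of 2.50 (1.16 to 5.96). The log2 fold change of Huh-7 over ES-2 was 5.53 when ES-2 replicate 1 was left out and 6.76 when replicate 2 was. A-549 gave 4.31 and 5.53 in the same order, and MV-3 gave 2.78 and 4.0. The calls over ES-2 held with either ES-2 library left out. Of a list of 6 miRNAs that differed between lines, 4 also had a higher library CPM in ES-2 replicate 2 than in replicate 1. These were miR-122-5p with 57 against 6 reads and miR-483-3p with 15 against 0, which were highest in Huh-7. The others were miR-493-5p with 17 against 0 and miR-379-5p with 5 against 0, which were highest in A-549. miR-885-5p had 0 reads in both, and miR-31-5p, which made up nearly all of the list in ES-2, left the summed list at 2754 and 2751 CPM. Other names with few reads went either way. In replicate 2 against replicate 1, miR-126-3p had 23 against 11 reads and miR-499a-5p had 0 against 11. For miR-1-3p these were 0 against 3, and for miR-150-5p 0 against 2. The share of all names higher in replicate 2 was not counted. The part of these miRNAs in the ES-2 level of miR-486-5p was not tested.

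Differences among the other 3 lines were smaller. miR-486-5p was higher in Huh-7 than in MV-3 by a log2 fold change of 2.76 (SE 0.37, limma's adjusted p = 0.000773), where 26.9% of names were called higher in Huh-7. This call was lost when Huh-7 replicate 1 (adjusted p = 0.0160) or Huh-7 replicate 2 (adjusted p = 0.0152) was left out, although the fold change hardly moved. A-549 against MV-3 gave 1.53 (adjusted p = 0.0130; 0.59 and adjusted p = 0.205 without TMM factors) and Huh-7 against A-549 gave 1.22 (adjusted p = 0.0252), neither of which was called. In these contrasts, 24.1% and 23.7% of names were called higher in the line named first. Of 18 alternatives, 12 left each of these differences uncalled and 6 called it, a looser threshold of 0.05 among the 6. Both were called by limma when either ES-2 library was left out (adjusted p from 0.000407 to 0.000655) and by edgeR's quasi-likelihood test on reads (adjusted p = 0.000641 and 0.00146). Leaving out a library of another line raised limma's adjusted p to as much as 0.0931 for A-549 against MV-3 and 0.135 for Huh-7 against A-549.

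For miR-486-3p, no difference among MV-3, A-549 and Huh-7 was called. The log2 fold change was 1.5 for Huh-7 against MV-3 (SE 0.41, limma's adjusted p = 0.0203), 0.78 for Huh-7 against A-549 (adjusted p = 0.146) and 0.72 for A-549 against MV-3 (adjusted p = 0.197). The last value turned to -0.19 without TMM factors, a scaling that moved the median of all names by -0.61 in this contrast. The distance between Huh-7 and A-549 depended most on the scaling. Without TMM factors it was 2.69 for miR-486-5p and 2.21 for miR-486-3p, both called, while the median of all names moved by 1.28.

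**Figure D2:**
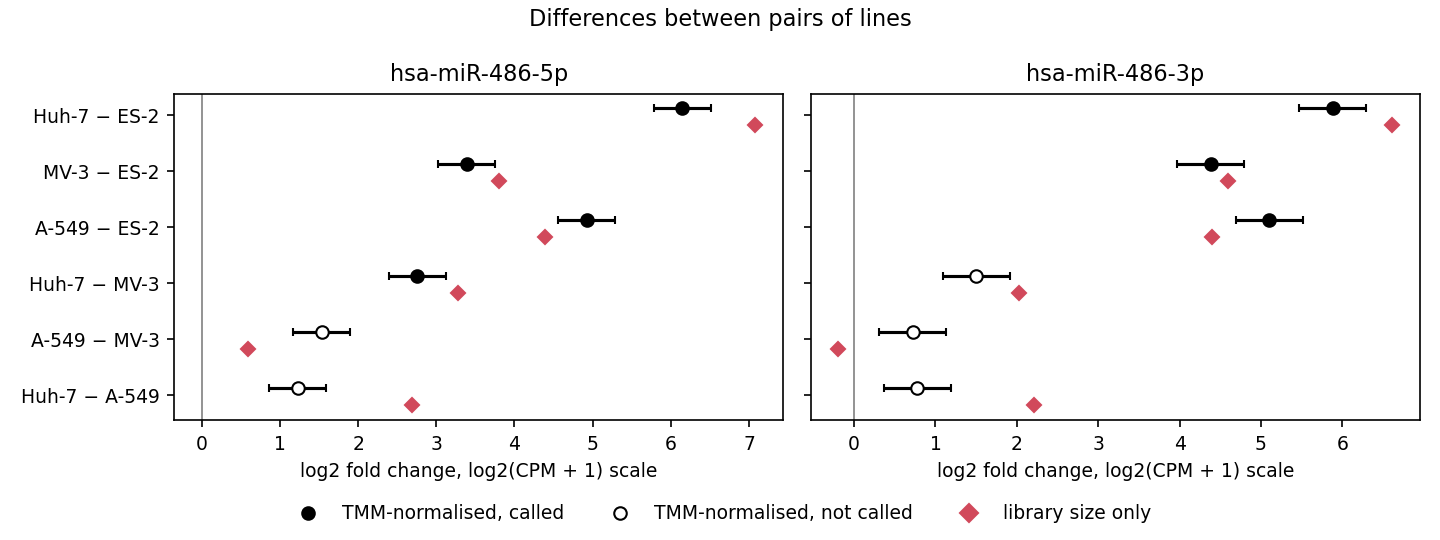
Log2 fold changes of both miR-486 arms for the 6 pairs of lines, first line minus second, on the log2(CPM + 1) scale. Circles with SE bars are limma values from TMM-normalised CPM, filled where called, and diamonds are values without TMM factors. The contrasts with ES-2 lie between 3.39 and 6.15 for miR-486-5p, and the contrasts among the other lines are smaller.

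The replicates of MV-3 and Huh-7 were closest for miR-486-5p. For miR-486-5p, the ratio of library CPM in replicate 2 over replicate 1 was 1.05 for Huh-7 (0.997 to 1.11), 1.04 for MV-3 (0.839 to 1.29) and 0.854 for A-549 (0.749 to 0.973). For miR-486-3p it was 0.793 for Huh-7 (0.642 to 0.978), 1.66 for MV-3 (0.971 to 2.93) and 0.638 for A-549 (0.407 to 0.982). The intervals of miR-486-5p in ES-2 and A-549 and of miR-486-3p in Huh-7 and A-549 did not reach 1, so these replicates differed by more than counting error, although on normalised CPM the interval of miR-486-3p in A-549 did (0.418 to 1.01). Over all names with at least 100 reads in a line, the size of the log2 ratio had a median between 0.14 and 0.18 and a 90th percentile between 0.47 and 0.54 in the 4 lines. Among members with that many reads, miR-486-5p was at -0.23 for A-549, 0.08 for Huh-7 and 0.05 for MV-3. miR-486-3p was at -0.65 for A-549 and -0.33 for Huh-7. Its A-549 value lay beyond the 90th percentile, but rested on 100 reads, the fewest that the background admits. Names with more reads have less counting error, so this background is not matched to it. miR-486-5p in ES-2 and miR-486-3p in MV-3, with 40 and 67 reads, have no such background here.

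The 5p arm dominated in each library with reads of both arms. The share of miR-486-3p among the reads of both arms was 12% and 17.9% for MV-3, 10.3% and 7.93% for A-549, and 7.86% and 6.03% for Huh-7. The MV-3 libraries were thus the highest, but the interval of MV-3 replicate 1 (7.58% to 17.8%) overlapped those of Huh-7 replicate 1 and of both A-549 libraries. In ES-2, 0 of 9 and 0 of 31 reads were from the 3p arm, which allows shares of up to 33.3% and 9.68%. The limit of ES-2 replicate 2 lay below both MV-3 shares and below the interval of MV-3 replicate 2 (13.4% to 23.1%), but not below the Huh-7 shares or that of A-549 replicate 2. Differences in arm share between lines were not tested.

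**Figure D3:**
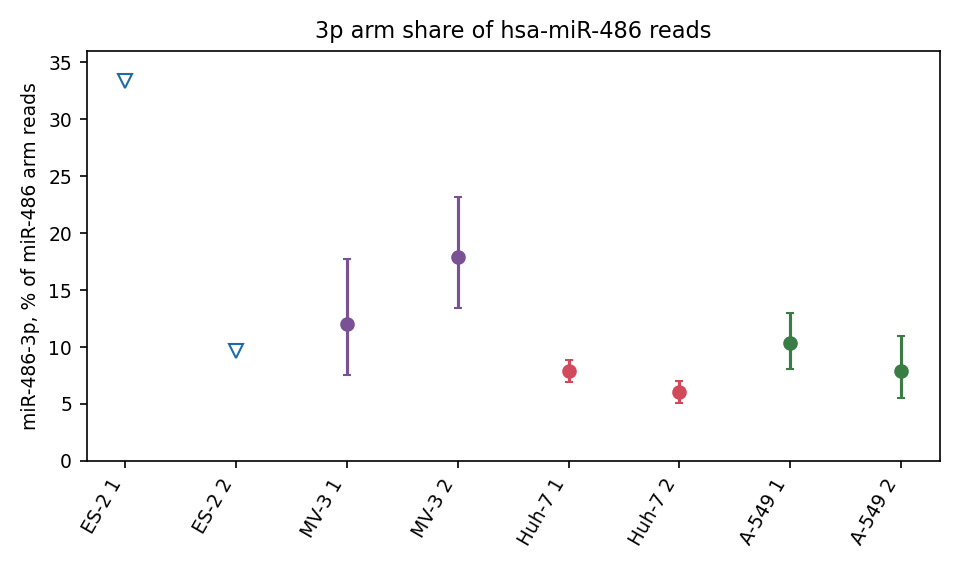
Share of miR-486-3p among miR-486 reads in each library, in percent, with exact 95% intervals of counting error. Open triangles mark the 3-read limit of the ES-2 libraries, which had no read of this arm. Both MV-3 points, at 12% and 17.9%, lie above the Huh-7 points at 7.86% and 6.03%.

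The genomic source of miR-486 could not be resolved further. GENCODE places MIR486-1 on chromosome 8 at 41660441 to 41660508 on the minus strand and MIR486-2 at 41660444 to 41660507 on the plus strand of GRCh38. These hairpins share 64 bases of the same intron of ANK1, which is itself on the minus strand. The table lists each arm of miR-486 for both hairpins, and the first entry held 49.5% of miR-486-5p reads (48.3% to 50.7%) and 53.7% of miR-486-3p reads (49.5% to 57.9%). How reads that align to several places were counted was not stated, so the entries are uncertain as separate measurements and were summed.

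Taken over the 5 members, Huh-7 had the largest share of reads, at 0.138% and 0.143% of each library. A-549 followed with 0.0243% and 0.0203%, MV-3 with 0.0149% and 0.0166%, and ES-2 with 0.000601% and 0.00135%. Between 82.1% and 100% of these reads were miR-486-5p. Summed over the libraries, miR-486-5p had 920 reads for each read of miR-451a. Within a library this number was 577 in Huh-7 replicate 2, 192 in A-549 replicate 2 and 9 in ES-2 replicate 1, and at least 922 in Huh-7 replicate 1, where miR-451a had no read.

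Lists of miRNAs of other blood, vessel and muscle cells were examined in the same libraries. Among 6 white-cell and platelet miRNAs, 2 had no read, and miR-223-3p and miR-150-5p had 3 and 4 reads in all. The other 2, miR-142-3p and miR-142-5p, were found in ES-2 alone, with 542 and 657 reads for the 3p arm, so the summed list ran from 427 to 480 CPM in ES-2 and from 0 to 1.38 in the other lines. ES-2 was the line with the least miR-486. Of 7 muscle miRNAs, miR-133b, miR-206, miR-208a-3p and miR-208b-3p had no read, and the summed list stayed between 0 and 16.6 CPM. The muscle miRNAs that could be tested, miR-1-3p and miR-499a-5p, were not called among the lines (limma's adjusted p = 0.329 and 0.955). Of 6 further miRNAs that are abundant in red cells but found in many tissues, 5 were tested and 4 were called among the 4 lines, beside 68.2% of all names tested. Huh-7 against MV-3 had 4 called higher and 0 lower, as had Huh-7 against A-549. The shares of all names called higher in these contrasts were 26.9% and 23.7%. A-549 against ES-2 had 0 called higher and 2 lower, MV-3 against ES-2 had 0 and 1, and A-549 against MV-3 had 1 and 2. Of all names, 23.7%, 11.6% and 24.1% were called higher there, in the same order. Calls in either direction covered 218, 136 and 209 of 528 names, and 260 in Huh-7 against ES-2. Between Huh-7 and ES-2, 2 were called higher (27.7% of all names) and 1 lower in Huh-7. The last was miR-92a-3p, the most abundant of them, whose log2 fold change was -0.50 (limma's adjusted p = 0.000276) on normalised CPM, although its library CPM was higher in Huh-7 (73707 and 72530) than in ES-2 (52513 and 53543). The part of these cell types in the level of miR-486 was not tested.

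The miRNAs whose levels resembled those of miR-486-5p most were sought over the 8 libraries, by Pearson's r of log2(library CPM + 1). The highest values were 0.972 for miR-1269b, 0.944 for miR-125a-5p and 0.941 for miR-126-3p, and miR-486-3p itself had 0.974. For miR-486-3p, they were 0.986 for miR-125a-5p, 0.960 for miR-99b-5p and 0.958 for miR-145-5p. These 8 libraries form 4 pairs of the same line and share their scaling, so the coefficients are descriptions and carry no p. A high r did not require a like range or order of the lines. miR-125a-5p had a mean of 3772 library CPM for ES-2, 8280 for A-549, 8944 for MV-3 and 10776 for Huh-7. miR-126-3p, best known from endothelial cells and encoded in EGFL7, had a mean of 756 library CPM for Huh-7, 204 for A-549, 32.6 for MV-3 and 8.32 for ES-2. Both arms of miR-126 were called higher in Huh-7 and in A-549 than in ES-2, as were both arms of miR-486. In Huh-7 against A-549, no arm of miR-126 or miR-486 was called. In Huh-7 against MV-3, both miR-126 arms and miR-486-5p were called higher in Huh-7. There miR-486-3p was not called (limma's adjusted p = 0.0203). The remaining contrasts differed between miR-126 and miR-486. In MV-3 against ES-2, both miR-486 arms were called but neither miR-126 arm (limma's adjusted p = 0.0111 for 3p and 0.0656 for 5p). In A-549 against MV-3, both miR-126 arms were called (limma's adjusted p = 0.000114 and 0.000931) but neither miR-486 arm.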

How the data were processed

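The authors made 8 NEXTflex small RNA libraries, 2 from each of 4 lines, from TRIZOL-extracted RNA. Per the study's methods and the submitters' processing notes, reads were trimmed with cutadapt 1.14, aligned to hg38 with Bowtie2 2.3.2 and counted on miRBase 21 with featureCounts 1.5.3. The authors deposited a table of signal values, normalised with TMM in edgeR 3.18.1. The deposited values were whole reads times 1 constant per library for 100% of values (tolerance 0.001), which gave back the reads, the totals (1173902 to 2670030 per library) and the TMM factors. The build of the GENCODE release used for positions is GRCh38 as well.

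Entries of a name were summed. The test was limma 3.58.1 with a mean-dependent prior in R 4.3.3, on log2(normalised CPM + 1), with 1 term per line over 8 libraries and 4 residual degrees of freedom. This scale understates the change of miRNAs with few reads. filterByExpr left 528 names, and names below a Benjamini-Hochberg adjusted p of 0.01 were called. edgeR 4.0.16 and DESeq2 1.42.0 on recovered reads were alternatives. Others changed the scaling, filter, pseudocount or entry, added a replicate block, left out a library, or set the threshold at 0.05. The limma step was tested on simulated data. RefSeq (GRCh38.p14) held the mature sequence of 2 of the 5 members.

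The text names the 5 members, members of fixed lists and, for each tested member, the 3 miRNAs of highest r. miR-101-3p was added after its values were seen, as a name sharing seed bases. The members and lists were chosen with earlier results of these data known. Libraries of a line differed by more than counting error (chi-square per degree of freedom from 8.53 to 15.6). The study describes the libraries of a line as biological replicates, without saying whether they came from separate cultures, so p-values measure only the spread between these libraries. Reads are not molecules, so intervals cover counting error only.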

Additional observations from a re-analysis of the deposited data

How the results depend on the processing

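Both miR-486 arms were called among the 4 lines under all 18 alternatives, and the number of all names called ran from 279 to 431 against 360. Leaving out single libraries gave 279 to 355. On recovered reads, edgeR called 371 and DESeq2 349. Within single pairs, the main fit called from 136 of 528 names (MV-3 against ES-2) to 276 (Huh-7 against A-549). Over the 6 pairs, the members had 7 calls, and 6 to 10 under the alternatives. Of 216 fold changes recomputed, 197 stayed on the same side of the threshold, 2 lost their call, 16 gained one and 1 turned its sign. The last was miR-486-3p in A-549 against MV-3, at -0.19 without TMM factors. That scaling also moved the share of names called higher from 60.8% to 34.0% in this pair and from 45.3% to 68.7% in Huh-7 against A-549. It moved this share from 56.2% to 72.3%, from 44.9% to 59.4% and from 57.3% to 44.4% for Huh-7, MV-3 and A-549 against ES-2. The 2 lost calls were those of miR-486-5p in Huh-7 against MV-3 without a Huh-7 library. The fitted fold changes of miR-486-3p over ES-2, where it had no read, depend on the pseudocount, with 9.18 for Huh-7 at a pseudocount of 0.1 against 5.88, so lower bounds are given instead.

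With a replicate block, 361 names were called among the lines and the members had 7 calls over the pairs. From 129 of 528 names (MV-3 against ES-2) to 279 (Huh-7 against A-549) were then called per pair. The 6 correlations of same-numbered deviations ran from -0.05 to 0.23, so the numbers were not taken to pair the libraries. For miR-451a and miR-144, counts of 0 and of up to 3 reads could not be told apart at this depth. The cause of these shifts was not tested.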

Other observations

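The near-even division of miR-486 reads between its table entries was common to names with 2 entries. Of 133 such names, 37 had at least 100 reads, and 28 of these 37 had 45% to 55% of their reads on either entry. The median share of the larger entry was 51.3% and the highest was 96.9%. By library, the first entry of miR-486-5p held from 45.4% of reads in A-549 replicate 2 to 77.8% in ES-2 replicate 1, which had 7 and 2 reads. When the entry with the most reads overall stood in for the sum, the ES-2 replicates had 2 and 15 reads of miR-486-5p, and the ratio of replicate 2 over 1 was 5.44 (1.26 to 49.0).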
